A study of Arabidopsis thaliana with 4 samples.

Results

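Genes that build, decorate and cut the polysaccharides of the plant cell wall were examined in 10-day-old Arabidopsis thaliana after treatment with the hormone abscisic acid (ABA). They were chosen by symbol alone: probe sets assigned to exactly 1 gene whose name begins with TBL, GH9, CSL, CESA, XTH, GAUT, GATL, IRX, FLA or AGP. The rule found 56 genes among 22746 probe sets: 22 TBL, 15 GH9, 9 XTH and 7 CSL genes, 2 IRX genes and 1 GAUT gene. By symbol, RefSeq holds 41 TBL, 21 GH9, 30 XTH, 26 CSL, 10 IRX and 13 GAUT genes. These families were thus covered only in part, and every family result below refers to the genes found. No probe set named here belonged to the CESA, GATL, FLA or AGP families, so cellulose synthases and arabinogalactan proteins were not analysed here. All 56 symbols were family members in the RefSeq annotation of assembly TAIR10.1.

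The study had 4 groups with 1 Affymetrix ATH1 array each, and RNA came from whole plants, 10 of them pooled per sample. WS control and WS ABA were plants of the Wassilewskija ecotype (ws-2) from a stock whose labels give no genetic modification. The groups gpa1 control and gpa1 ABA were plants of a T-DNA insertion line in the same ecotype, named gpa1 after the G protein alpha subunit GPA1. The labels place that insertion in At3g26300, which is not the GPA1 locus (AT2G26300), and gpa1 here means only the arrays that carry this label. Both ABA groups had 100 µM ABA for 3 h, and for the control groups the labels give neither a treatment nor a mock treatment. All plants grew at 21 °C on agar with Murashige and Skoog medium, in 16 h light and 8 h dark. The title of the series asks how the wild type and the mutant differ in their response to ABA.

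In the primary wall, cellulose microfibrils are tethered by xyloglucan and embedded in pectin, while xylan and mannan are the main hemicelluloses of secondary walls and of some primary walls. CSL enzymes make hemicellulose backbones in the Golgi, and TBL proteins, named after a trichome birefringence mutant, add acetyl groups to xylan, mannan, xyloglucan or pectin. In the wall itself, XTH enzymes cut and rejoin xyloglucan chains and GH9 enzymes are endo-glucanases that cut glucan chains. The hormone ABA signals drought, keeps seeds dormant and slows the expansion growth that goes with remodelling of the wall.

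Values are probe-set intensities on a linear scale. Intensities at or below 19.2, the 30th percentile of all values, count as at the floor, where a value is only an upper bound. Of the 56 genes, 34 lay above the floor on all 4 arrays and 10 at the floor on all 4. The 35 genes bright enough to be tested had a mean log2 intensity above the 40th percentile of all probe sets, which is an intensity of about 31.1. Just inside that limit lay TBL28, TBL32 and TBL34, with mean log2 intensities of 5.02, 5.04 and 5.09, and just outside it GH9B18, XTH33 and TBL41, with 4.86, 4.71 and 4.65. In these whole-plant pools, fewer cells that express a gene and less of its RNA per cell cannot be told apart.

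The labels of treatment and tissue were set against marker genes. All 5 tested ABA markers were higher with ABA, and LEA4-5, a late embryogenesis abundant protein, read 7.8 and 6.8 in the WS and gpa1 controls against 1557.9 and 1979.6 with ABA. Leaf and root transcripts were both present. RCA, the Rubisco activase, read between 4082.1 and 5486.7, and PYK10, a root beta-glucosidase, between 2227.2 and 3087.2. Of the 3 tested root markers 1 was lower with ABA (EXPA18) and none higher, and of the 4 tested leaf markers 1 was higher (LHCB4.3) and none lower. The part of the tissue markers in the results that follow was not tested. The arrays differed in technical readings. The 25S ribosomal RNA probe set read 2235.9 without and 958.7 with ABA in WS, against 1549.8 without and 1800.2 with ABA in gpa1. In the same order, the 3' to 5' ratio of the actin control probe sets was 6.09 and 8.55 in WS, against 8.71 and 6.76 in gpa1. Spike-in controls had geometric means of 383.1 and 217.5 in WS, against 252.6 and 365.8 in gpa1. Scanner background was 56.26 for WS control and 67.04 to 69.51 on the other arrays. The part of these readings in the results was not tested.

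With ABA, 14 of the 35 tested wall genes fell and 6 rose. The largest falls were those of TBL45, TBL36, GH9B13, XTH26 and GH9C2, and the largest rises those of TBL37, XTH18 and XTH32. By family, 7 TBL genes fell and 2 rose, 4 GH9 genes fell and none rose, and 2 XTH genes fell and 3 rose. None of the 4 tested CSLC genes, which make the xyloglucan backbone, passed. The test was limma on log2 intensities over all 13647 tested probe sets, with treatment and genotype in the model and Benjamini-Hochberg adjusted p under 0.05. With 1 array per group, each treatment was replicated only across the 2 genotypes. The p-values therefore set the size of the averaged change against how far the responses of 2 single pools lay apart. That spread was taken mostly from other probe sets, so a small p does not measure how alike the 2 responses of a gene were.

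Calls were common over the whole array, so counts have to be read against that. Of all tested probe sets 42.7% were called, 17.1% higher and 25.7% lower. Among the tested wall genes 57.1% were called, 17.1% higher and 40.0% lower. The median averaged change was -0.32 on the log2 scale for the wall genes and -0.16 for all tested probe sets, and small changes should be read against the latter. Median centring of the arrays moved the share of higher among all calls from 39.9% to 55.6% and called 7 wall genes higher and 12 lower. At least 2-fold on average, 7 wall genes (20%) were called lower and 3 (8.57%) higher, against 5.91% and 7.93% of all tested probe sets. Each of these shares leaves out the 21 wall genes too dim for the test, and genes that fell from a bright control could pass the brightness limit through the control alone, so the shares are descriptions without a test. The calls also rest on the brightness limit itself. With no limit limma called no probe set on the array, although 5054 of 22746 probe sets, 18 of the 56 wall genes among them, had an unadjusted p under 0.05. When the 5116 probe sets at the floor on all arrays were left out of that fit it called 6 wall genes higher and 15 lower. The model with treatment alone was also fitted with any 1 of the 4 arrays left out. TBL36, TBL37, GH9B13, GH9C2 and XTH18 were called in every such fit, while TBL25, TBL35, TBL39, CSLD2, XTH19 and IRX15-L were called in none. TBL45 and XTH26 were also called in every such fit, but their ABA values were set to the floor. The floor fixes the spread between their ABA arrays, so these calls are no check on them. Over the whole array these fits called far fewer probe sets than the main fit, and most of those calls were higher. The lower wall genes of each such fit include TBL45 and XTH26, so their number is not set against the array.

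**Figure D1:**
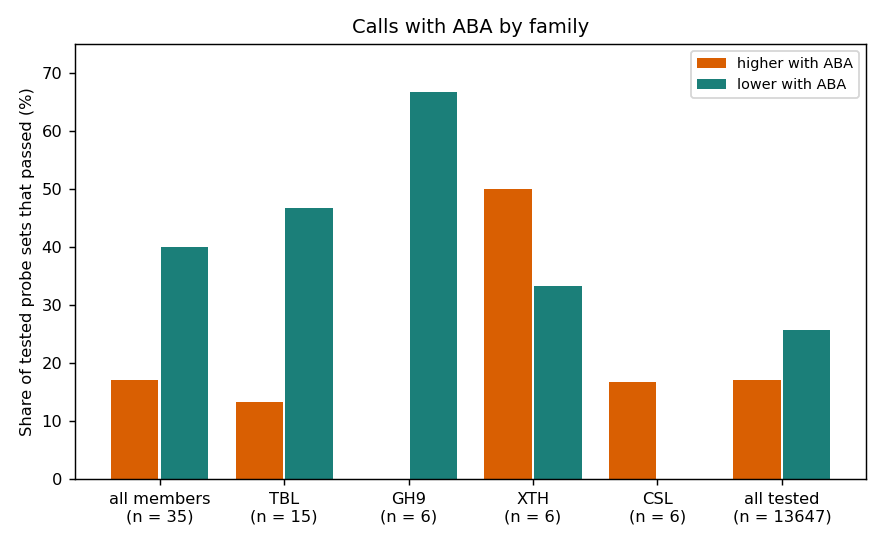
Share of tested probe sets called higher (orange) or lower (green) with ABA, in percent, for the 35 tested wall genes, for 4 of their families and for all 13647 tested probe sets. The wall genes and all probe sets have the same share of higher calls, 17.1%, while the shares of lower calls are 40.0% and 25.7%.

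The TBL family had 15 tested genes, of which 7 fell and 2 rose with ABA, where 25.7% of all tested probe sets fell and 17.1% rose. TBL45 (AT2G30010) read 408.2 in WS control and 465.4 in gpa1 control, against 18.5 and 5.3 with ABA. Both ABA arrays thus lay at the floor and both controls far above it, which makes the fold a lower bound of 21.3 in WS and 24.2 in gpa1. The averaged log2 change, -4.50 with the floor at 19.2 and -5.42 under a 15th-percentile floor, follows where the floor is set, and its limma p is not given because the floor also sets the spread between the ABA arrays. Under both floors TBL45 was called lower.

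TBL36 (AT3G54260) read 233.5 and 216.1 in the WS and gpa1 controls and 50.7 and 48.5 with ABA. The fall was 4.61-fold for WS and 4.46-fold for gpa1, and the gene stayed above the floor on every array, so here both sides were measured. On average the log2 change was -2.18 ± 0.19 (SE; limma adjusted p of 3.68e-22). TBL39 fell too, from 145.5 to 104.6 in WS and from 159.7 to 92.5 in gpa1, with an averaged change of -0.63 and a limma adjusted p of 0.00156.

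The TBL genes with a known acetylation target were grouped by that target after their values were seen. TBL28, TBL30, TBL32, TBL34 and TBL35 are known as xylan acetyltransferases. Of these 5, TBL28, TBL32 and TBL35 fell, with averaged log2 changes of -0.92, -0.81 and -0.66. Over all tested probe sets 25.7% were called lower, and a count this small, grouped with values seen, is only a description. The ABA values of TBL28, TBL32 and TBL34 averaged below the brightness limit, so these genes were tested only through their controls. A gene as dim under ABA without a brighter control would not have been tested, so the count is not set against that share. TBL34 and TBL30 had -0.60 and -0.40 and did not pass, with limma adjusted p of 0.0524 and 0.192. All 5 were dim, between 40.5 and 62.1 on the control arrays. TBL28 read 44.1 and 45.1 in the WS and gpa1 controls and 18.3 and 28.9 with ABA. TBL32 read 44.6 and 42.2 in the controls and 32.1 and 12.9 with ABA. Each of these was at the floor on 1 ABA array, TBL28 in WS and TBL32 in gpa1, and their ABA values in the other genotype lay between the floor and the controls. The averaged changes of both are therefore bounds. With the floor at the 45th percentile neither TBL28 (adjusted p of 0.266) nor TBL32 (0.352) passed. TBL35 did not pass with median centring (0.101) or quantile normalization (0.0817), and with treatment alone in the model neither TBL32 (0.0758) nor TBL35 (0.0538) passed. TBL34 was called lower with no intensity trend and in the fit over probe sets above the floor on all arrays. The probe set of TBL32 has the suffix _s_at, which on this array type marks probes shared by several transcripts.

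TBL23, TBL25 and TBL26 are known as mannan acetyltransferases, and 1 of the 3 fell, where 25.7% of all tested probe sets did. TBL25 read 369.6 in WS control and 325.7 in gpa1 control, against 222.8 in WS ABA and 202.2 in gpa1 ABA, so every control lay above every ABA value. Its averaged change was -0.71 ± 0.14 (SE), with a limma adjusted p of 9.97e-06. Neither TBL23, with an average of -0.32, nor TBL26, with 0.24, passed.

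TBL37 and TBL38 went the other way. TBL37 (AT2G34070) read 154.4 and 176.8 in the WS and gpa1 controls and 509.5 and 463.0 with ABA, a rise of 3.30-fold and 2.62-fold. The average of 1.56 ± 0.14 (SE) on the log2 scale was the highest of the tested wall genes (limma adjusted p of 5.58e-20). TBL38 (AT1G29050), described in seed mucilage as acting on pectin acetylation, read 231.1 and 246.6 in the controls and 481.0 and 435.1 with ABA. The rise was 2.08-fold and 1.76-fold (limma adjusted p of 3.82e-09). Neither TBL16, with an average of 0.06, nor TBL18, with 0.11, passed.

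**Figure D2:**
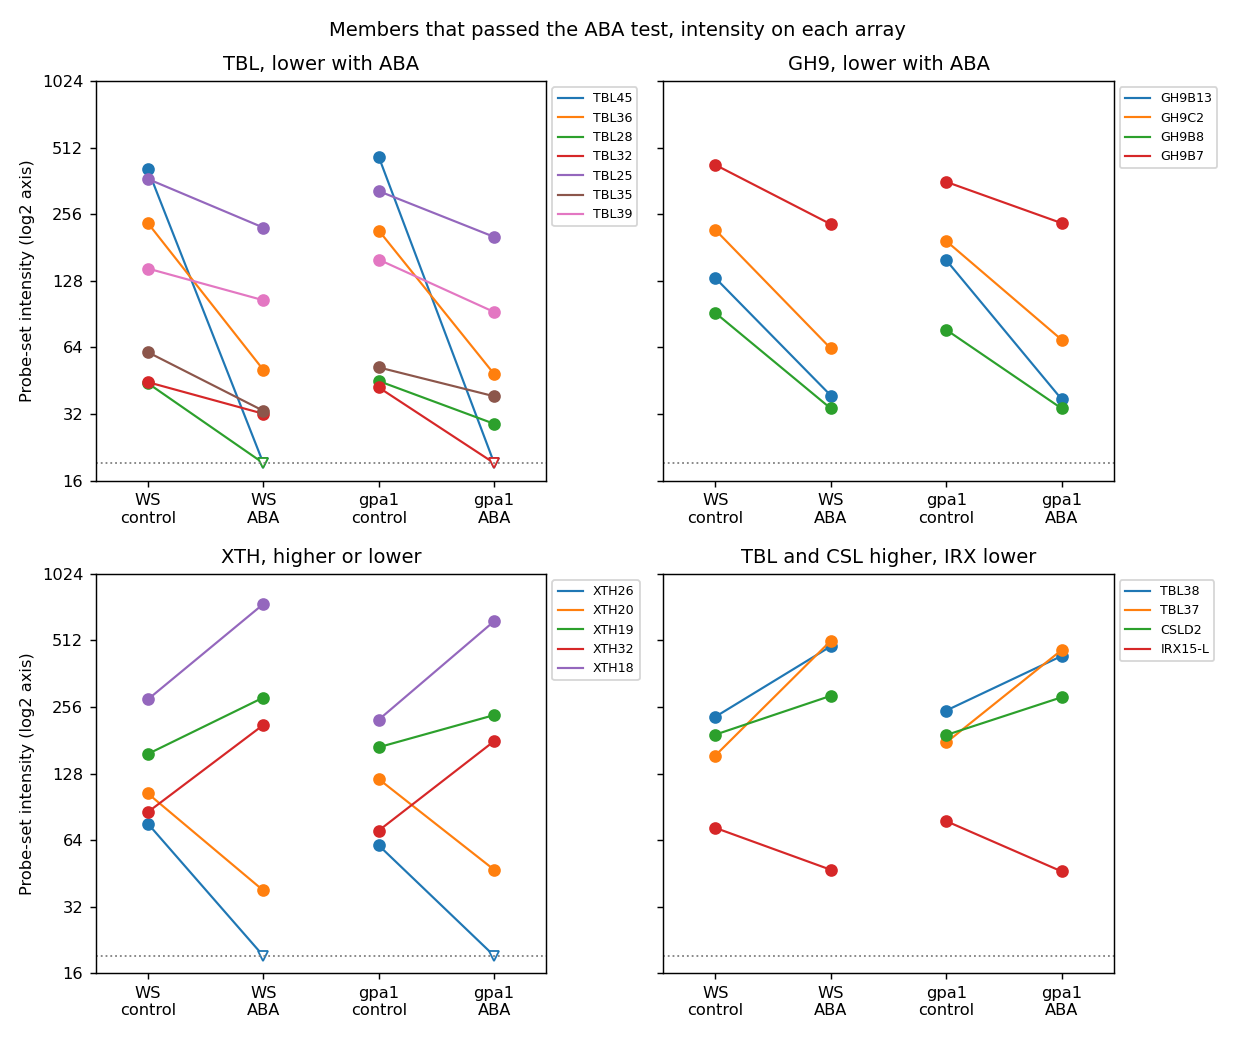
Probe-set intensity (log2 axis) on each of the 4 arrays for the 20 wall genes that passed the ABA test, with control and ABA of a genotype joined by a line. The dotted line is the floor at 19.2, and open triangles are values at or below it, drawn at the floor. TBL45 and XTH26 reach the floor on both ABA arrays, and TBL37, TBL38, XTH18, XTH19, XTH32 and CSLD2 rise in both genotypes.

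The GH9 family of endo-1,4-beta-glucanases had 6 tested genes, and 4 of them fell and none rose. Over all tested probe sets 25.7% were lower and 17.1% higher, and counts this small are only a description. GH9 enzymes fall into class A, which are membrane-anchored and include the cellulose synthesis enzyme KORRIGAN, class B, which are secreted, and class C, which carry a carbohydrate-binding domain. Of the 10 class B genes named here, 7 were not tested, 5 of these being at the floor on all arrays. The 3 tested class B genes fell. GH9B13 (AT4G02290) read 131.8 in WS control and 158.7 in gpa1 control, against 38.8 in WS ABA and 37.3 in gpa1 ABA. The fall was 3.40-fold in WS and 4.25-fold in gpa1, on average -1.93 ± 0.22 (SE) as a log2 change (limma adjusted p of 1.46e-14). GH9B8 read 91.7 and 76.9 in the controls and 33.9 with ABA in each genotype, a fall of 2.71-fold and 2.27-fold (limma adjusted p of 1.36e-06). GH9B7 moved least of the called GH9 genes, from 427.9 to 230.7 in WS and from 358.6 to 233.3 in gpa1, which is 1.85-fold and 1.54-fold (limma adjusted p of 2.11e-06).

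Of the 2 tested class C genes 1 fell, and the tested class A gene did not pass. GH9C2 (AT1G64390) read 217.5 and 193.7 in the controls and 63.3 and 69.3 with ABA, a fall of 3.44-fold and 2.80-fold. On average this was -1.63 ± 0.18 (SE) on the log2 scale (limma adjusted p of 3.49e-15). GH9C1 had an averaged change of -0.31 (95% interval -0.63 to 0.01) and GH9A3, also called KOR3, of 0.29 (-0.20 to 0.77), and neither passed. GH9C3 was too dim to be tested: it read 26.3 and 29.5 in the controls and 16.7 on each ABA array, at the floor.

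XTH genes split in direction, with 3 of 6 tested genes rising and 2 falling. Over all tested probe sets 17.1% were higher and 25.7% lower. XTH18 (AT4G30280) read 276.8 and 224.2 in the WS and gpa1 controls and 747.2 and 624.8 with ABA. The rise was 2.70-fold in WS and 2.79-fold in gpa1, on average 1.46 ± 0.14 (SE) as a log2 change (limma adjusted p of 2.29e-18). Its direct neighbour on the chromosome, XTH19, rose from 156.9 to 282.2 in WS and from 168.3 to 235.2 in gpa1, by 1.80-fold and 1.40-fold (limma adjusted p of 8.08e-05). The probes of these related neighbours were not checked for cross-hybridisation. XTH32, of a subgroup related to xyloglucan hydrolases, read 85.7 and 70.7 in the controls and 212.1 and 179.4 with ABA, and its averaged change was 1.33 (limma adjusted p of 2.43e-11).

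The other 2 called XTH genes, XTH26 and XTH20, fell. XTH26 (AT4G28850), which has been described in root hairs, read 76.0 and 60.6 in the controls and 1.5 and 1.7 with ABA. Both ABA values lay under the floor, so the falls are lower bounds of 3.96-fold for WS and 3.16-fold for gpa1. The gene passed the brightness limit through its controls, and under a 15th-percentile floor it was not tested, so its call is a description and its p is not given. XTH20 read 104.0 and 120.8 in the controls and 37.9 and 47.0 with ABA, a fall of 2.74-fold and 2.57-fold (limma adjusted p of 2.00e-08). XTH16 had an averaged change of -0.02 (95% interval -0.35 to 0.30), which median centring turned to 0.12, and did not pass in either case. The tested root markers differed between the genotypes beside these falls. EXPA18, called lower on the average of -0.64, had a log2 change of -1.27 in WS and -0.02 in gpa1. EXPA7 had -0.92 in WS and 0.55 in gpa1, and PYK10 had -0.47 and -0.05, and neither passed. XTH26 and XTH20 were lower with ABA in both genotypes. The part of root tissue in these falls was not tested.

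Of the 6 tested CSL genes, synthases of hemicellulose backbones and related polymers, CSLD2 rose and none fell. Over all tested probe sets 17.1% were higher and 25.7% lower. CSLC04, CSLC5, CSLC6 and CSLC12 are glucan synthases of the xyloglucan backbone, and none of these 4 passed, with averaged log2 changes from -0.32 to 0.16. Their 95% intervals together ran from -0.83 to 0.51, with widths that rest mostly on the spread pooled over probe sets. CSLC5, for example, read 124.1 and 118.8 in the controls and 114.5 and 120.1 with ABA. CSLA03, a mannan synthase, had -0.45 (95% interval -0.85 to -0.05) and an adjusted p of 0.0643 in limma. CSLD2 (AT5G16910), needed for the tip growth of root hairs, read 191.9 and 191.1 in the controls and 287.4 and 283.2 with ABA. The rise was 1.50-fold and 1.48-fold, on average 0.58 ± 0.14 (SE) as a log2 change (limma adjusted p of 0.000482). XTH26, also described in root hairs, fell, but its fall is a bound set by the floor. CSLD2 was called in no fit with 1 array left out. The part of root hairs in either change was not tested.

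The remaining families had 1 tested gene each. IRX15-L, which is needed for normal xylan chains, fell from 72.7 to 47.0 in WS and from 78.0 to 46.2 in gpa1, with an averaged change of -0.69 and a limma adjusted p of 0.0105. It did not pass with median centring (0.0548) or with any 1 array left out (0.101 to 0.149). Its relative IRX15 was at the floor on every array. GAUT15, of the pectin galacturonosyltransferase family, read 41.4 and 48.6 in the controls and 67.4 and 63.1 with ABA. Its averaged change of 0.54 did not pass, with a limma adjusted p of 0.0581, and it did pass with median centring (0.0166), quantile normalization (0.0128), the floor at the 45th percentile (0.0281) and no intensity trend (0.0369).

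The 21 genes that were not tested read at most 35.4 on any array. They comprised 7 TBL, 9 GH9 and 3 XTH genes, CSLA01 and IRX15. Of these, 10 were at the floor on all arrays, among them GH9B5, GH9B6, GH9B11, GH9B16, GH9B17 and XTH21. The other 11 were above it on at least 1 array, and GH9A4, GH9B18 and TBL41 on all 4.

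Other wall genes were gathered by symbol with 11 lists, and 14 of them were tested. The lists of callose synthases, secondary wall transcription factors, arabinogalactan glycosyltransferases and cellulose synthase partners had no gene named here. PRP39, PEX4, GT2, FRA3 and GT72B1 matched a list's letters but are not of the kind of protein that list was meant for. They were set aside after their values were seen, which does not mean that none has a part in the wall. Of all 14, 6 fell and 2 rose, GT72B1 being 1 of those that rose, and without the 5 set-aside genes 5 of 9 fell and 1 rose. Over all tested probe sets 25.7% were lower and 17.1% higher, and counts this small, in part chosen with values seen, are given as a description. COB, a GPI-anchored protein that orients cellulose, read 597.0 and 562.8 in the controls and 347.3 and 422.2 with ABA. HRGP1, a hydroxyproline-rich glycoprotein, read 1143.3 and 1034.2 against 604.4 and 632.8. Its probe set has the suffix _x_at and was not checked for cross-hybridisation. XEG113, an arabinosyltransferase of extensins, and GER2, an enzyme of GDP-fucose synthesis, had averaged log2 changes of -0.82 and -0.72, and THE1, a receptor kinase that senses the state of the wall, -0.72. CCR2, a cinnamoyl-CoA reductase of the lignin pathway, read 21.9 and 20.8 in the controls and 126.3 and 125.2 with ABA, an averaged change of 2.56. BGAL16, a beta-galactosidase, the receptor kinase FER and HCT of lignin synthesis had averages of 0.14, 0.16 and -0.22, and none of them passed.

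The responses to ABA were next taken within WS and within gpa1. All 20 called genes changed in the same direction in both genotypes, though calling on the average itself favours that. At least 2-fold with ABA, 4 tested wall genes were higher and 8 lower in WS, and 3 were higher and 8 lower in gpa1, against 8.61% and 6.73% of all tested probe sets in WS and 7.84% and 6.88% in gpa1. Both genotypes reached 2-fold for 3 genes higher (8.57%) and 7 lower (20%), where the shares of all tested probe sets were 6.49% and 3.80%. The lower 7 were TBL45, TBL36, GH9B13, GH9C2, GH9B8, XTH26 and XTH20, and the higher 3 were TBL37, XTH18 and XTH32. These comparisons of 1 array with another have no replicate check.

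**Figure D3:**
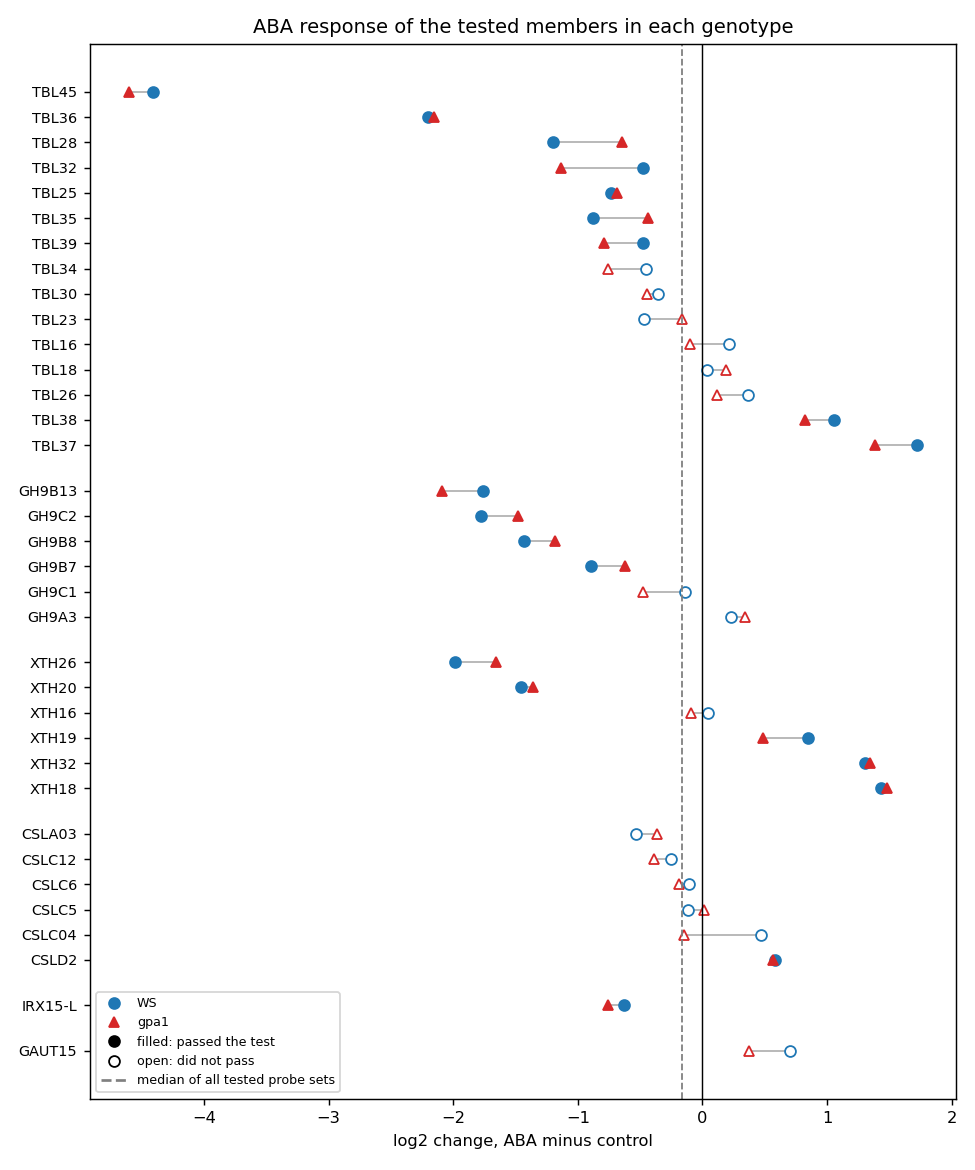
Log2 change with ABA in WS (blue circles) and gpa1 (red triangles) for the 35 tested wall genes, ordered by averaged change within a family, where filled symbols passed the test of the averaged change. The dashed line is the median of all tested probe sets at -0.16. Values at the floor are drawn from the floor, as for both ABA arrays of TBL45 and XTH26, and circles and triangles of a gene drawn so lie at most 0.66 apart.

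With values at the floor set to it, no tested wall gene had responses at least 2-fold apart, against 3.03% of all tested probe sets, and the largest gap was 0.66 on the log2 scale. The gap of TBL45 was not measured this way, since both its ABA values were at the floor. With the floor at the 15th percentile it was the 1 wall gene at least 2-fold apart, with a log2 difference of -1.91 for gpa1 less WS. Its gpa1 ABA value of 5.3 was still under that floor of 5.6, so this gap also follows where the floor is set. The design allows no test of this difference. TBL32 had the lower response in gpa1, -1.14 against -0.47 in WS as log2 changes, where the gpa1 ABA value was at the floor. CSLC04 had 0.47 in WS and -0.15 in gpa1, from intensities of 102.8 and 142.1 in WS and of 120.5 and 108.7 in gpa1. TBL28 had the higher response in gpa1, by 0.56, TBL35 by 0.45, and XTH19 the lower by 0.36. The 25S ribosomal RNA, spike-in and actin readings moved in opposite directions in the genotypes, as given above. Their part in these gaps was not tested.

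No wall gene passed the test of genotype. In the averaged genotype contrast limma called none of the 35, against 2.90% of all tested probe sets (1.42% higher and 1.48% lower in gpa1). At an unadjusted p under 0.05 there was 1 gene, XTH18, against 11.2% of all tested probe sets. XTH18 read lower in gpa1 both without ABA (224.2 against 276.8) and with ABA (624.8 against 747.2), with an averaged difference of -0.28 and a limma adjusted p of 0.432. No tested wall gene differed 2-fold between the genotypes without or with ABA, where 1.14% and 1.76% of all tested probe sets did.

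The 5 largest averaged genotype differences belonged to TBL genes. TBL23 had -0.50, with intensities of 57.6 without and 41.6 with ABA in WS, against 36.7 and 32.8 in gpa1. Its gpa1 values both lay below its WS values, though the limma adjusted p was 0.456. TBL30 had 0.46 (limma adjusted p of 0.511), from 43.7 without and 34.2 with ABA in WS, against 62.1 and 45.6 in gpa1. TBL32, TBL28 and TBL26 had -0.41, 0.31 and -0.30. The 95% interval of TBL30 ran from -0.03 to 0.95, so the limit for so dim a gene lay close to 2-fold. For TBL45, the values of 18.5 in WS ABA and 5.3 in gpa1 ABA both lay under the floor. With the floor lowered to the 15th percentile (5.6) it was called lower in gpa1, with an averaged difference of -0.77. The gpa1 ABA value lay under that floor too, so this difference follows where the floor is set. Its limma p is not given for that reason.

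**Figure D4:**
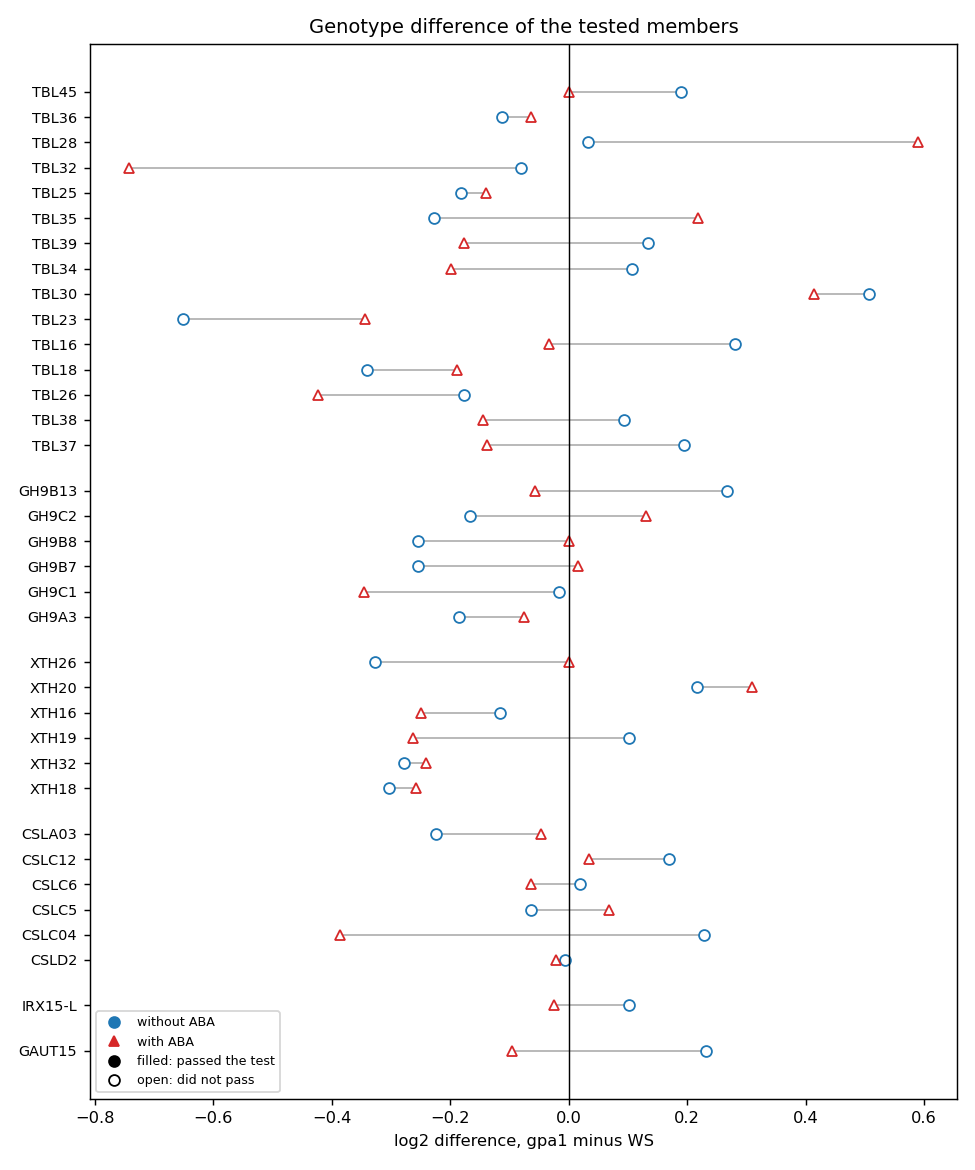
Log2 difference of gpa1 minus WS without ABA (blue circles) and with ABA (red triangles) for the 35 tested wall genes, where open symbols did not pass the test of the averaged difference and values at the floor in both genotypes are drawn at 0. Every symbol is open, and the differences lie between -0.74 and 0.59.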

How the data were processed

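The authors deposited 1 linear intensity for each of 22810 probe sets on 4 Affymetrix ATH1 arrays, scaled to a common 2%-trimmed mean of 100, as the values show. The summarising program was not given in the sources used here. Control probe sets, 64 in number, were left out, values under the 30th percentile were raised to that floor (19.2), log2 was taken, and the 13647 probe sets whose mean log2 value exceeded the 40th percentile were tested. limma 3.58.1 in R 4.3.3 fitted treatment and genotype without an interaction (1 residual degree of freedom, a median of 171 prior ones, eBayes with an intensity trend, two-sided, Benjamini-Hochberg over all tested probe sets). The model was also run on simulated data, and the outcome, not given here, is no check of the p-values from these 4 arrays.

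Probe sets were named through the platform annotation, updated by gene identifier through RefSeq TAIR10.1: 13513 had 1 gene, 503 several and 8730 none listed. Both annotations gave the same 56 wall genes. Members and lists were chosen with earlier results of these data known. Named are TBL45, up to 3 tested genes per family and direction with the largest averaged ABA change, genes at the floor on both arrays of 1 treatment only, and the 5 largest genotype and response differences, with further members by family. The other wall lists give up to 2 called genes each. Alternatives changed the floor, the brightness limit, the normalization, the trend, the model and the arrays used. The number of arrays limits the precision.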

Additional observations from a re-analysis of the deposited data

Results flagged for a closer look

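In 4 of the 35 tested wall genes (11.4%, against 21.4% of all tested probe sets) the single WS array pair and the single gpa1 array pair moved in opposite directions with ABA, and the difference was not tested. As log2 values, the response in gpa1 less that in WS came to -0.62 for CSLC04, -0.31 for TBL16, -0.13 for XTH16 and 0.13 for CSLC5.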

How the results depend on the processing

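Of the 20 genes called with ABA, 16 kept their call and direction in those of 9 settings in which they were tested. These 9 leave aside the fit with no brightness limit and those with an array left out. XTH26 was not tested with the floor at the 15th percentile or the limit at the 60th, and GH9B8 not with the latter. Neither XTH26 nor TBL45 was tested in the fit over probe sets above the floor on all arrays. TBL28, TBL32, TBL35 and IRX15-L did not keep their call throughout. No ABA call turned its direction. The genotype difference of TBL45 turned from 0.09 to -0.77 under a 15th-percentile floor, where it was called. Its gpa1 ABA value was still at that floor. Values that passed in neither fit also changed sign: the ABA change of XTH16 from -0.02 to 0.12 with median centring and to between -0.15 and 0.10 with 1 array left out (0.033 without WS control), that of TBL23 from -0.32 to between -0.64 and 0.0093, that of CSLC04 from 0.16 to between -0.034 and 0.35, and the genotype differences of CSLD2 from -0.01 to 0.0041 with median centring and of TBL35 from -0.0049 to 0.013 with median centring and 0.00086 with quantile normalization. With no brightness limit 0 were called higher and 0 lower, where the prior degrees of freedom fell to 0.855 with 5116 flat probe sets in the fit. The 2 alternatives chosen after seeing the data leave out probe sets at the floor: 6 higher and 15 lower were called without those at the floor on all arrays, and 6 higher and 11 lower over those above it on all arrays. With the limit at the 60th percentile 22 genes were tested and 8 called lower, and 5 were 2-fold lower in WS and 5 in gpa1. With 1 array left out and treatment alone in the model, 2 to 4 were called higher and 6 to 8 lower, with 7 genes called in all 4 of these fits and 6 in none. With the floor at the 15th percentile 1 gene was called lower in gpa1 and 1 had responses 2-fold apart, both TBL45. The median ABA change of the tested wall genes came to -0.22 under a floor at the 45th percentile, -0.083 with no limit, -0.10 with the limit at the 60th percentile, -0.18 with median centring and -0.25 with quantile normalization. Median centring moved the share of higher calls over the array from 39.9% to 55.6%. The median response difference of -0.08 came to -0.032 under a floor at the 45th percentile, 0 with no limit, -0.049 with the limit at the 60th percentile and -0.028 with quantile normalization. The cause of the shifts other than that with no limit was not tested. No paired analysis was possible because each group had 1 array.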
